A study of Mus musculus with 3 samples.

Results

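Osteoclasts, the cells that resorb bone, form when precursors of the monocyte lineage receive signals from cells of the osteoblast lineage. The genes described here are 9 that carry those signals: Tnfsf11 (Rank ligand), Tnfrsf11a (its receptor Rank), Tnfrsf11b (osteoprotegerin), Csf1, Il34, Nfatc1, Oscar, Tyrobp and Trem2. They were chosen as a named group, and every array probe whose gene name in the scanner files equals one of these symbols was taken, which gave 13 of the 55680 probes and 9 of 35019 genes or unnamed probes. Of the 9 genes, 7 have a single probe each.

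As background, Rank ligand on osteoblast-lineage and stromal cells binds Rank on osteoclast precursors, and osteoprotegerin is a secreted decoy that binds Rank ligand and keeps it from Rank. Csf1 and Il34 are ligands of the Csf1 receptor and keep the precursors alive and dividing. Tyrobp (DAP12) is a membrane adaptor that pairs with Trem2, Oscar is a receptor that pairs with another adaptor, and both routes feed calcium signals to Nfatc1, the transcription factor that switches on the osteoclast programme. Osteoclasts line growing calvarial bone, and remodelling at the suture edge depends on them.

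RNA came from the posterior frontal suture, the midline suture between the frontal bones, of C57BL/6 mice. The groups were Runx2+/+ (wild type, WT) at postnatal day 5, Runx2+/+ at day 7 and Runx2+/- at day 7, with 1 one-colour Agilent array each. Runx2 encodes a transcription factor that osteoblasts need in order to form, and Runx2+/- mice keep 1 functional copy. The labels name no treatment, and neither the number of animals behind an array nor the structure of the mutant allele is stated. With 1 array a group there is no replicate check, no p-value and no test for any difference below. In a dissected tissue, fewer cells of a type and less RNA per cell cannot be told apart.

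The arrays differed in brightness, which sets what can be ordered. The scanner software's quality summary read in range for the P5 WT and Runx2+/- arrays and "evaluate" for the P7 WT array. The P7 WT array enters every age and genotype difference below. The 75th percentile of the processed signal, the scanner software's background-corrected spot brightness, was 52.1 units on the P5 WT array, 22.8 on the P7 WT array and 124.3 on the Runx2+/- array, and 40.1%, 29.2% and 47.3% of probes were flagged well above background. Levels below are log2 units above that percentile, and the lowest level that could be called well above background was -2.12, -0.69 and -3.25 on the 3 arrays. The SD of a log2 difference from repeated spots was 0.21 for age (P7 minus P5 in WT), 0.19 for genotype (Runx2+/- minus WT at P7) and 0.18 for the comparison of both at once (P7 Runx2+/- minus P5 WT), while probes of the same gene differed from each other with an SD of 0.44, 0.53 and 0.72. Within transcripts, differences rose towards the 3′ end by a median of 0.20, 0.14 and 0.37 log2 units per kb. Osteoblast markers, 9 of 9 of them, were well above background on each array, as were 12, 11 and 11 of 13 osteoclast markers. Runx2 itself was 0.38 lower for genotype with its brightest probe, which does not check the genotype because the deleted part is not known.

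Each statement on the 4 genes that the results turn on rests on a single 60-base probe. The first 30 bases of each, taken from the scanner files, are shown so that the measured stretch can be found. They run 5′ to 3′ in the sense of the transcript, with coordinates of the whole probe on mm9.
Tnfsf11 (chr14:78677444-78677503, minus strand): gatacataataggctactgaaatctgtcag
Tnfrsf11b (chr15:54082760-54082819, minus strand): tttatccagctgtcatgtctggttcagtat
Tnfrsf11a (chr1:107741892-107741951, plus strand): ccttgagagctaagttcaggtgaccttgtc
Oscar (chr7:3561419-3561478, minus strand): tctgtaatgtaaaatgacttgaacttgaat
These probes start at base 1984 of NM_011613, 2172 of NM_008764, 2355 of NM_009399 and 1759 of NM_175632. Their GC content was 35%, 43.3%, 45% and 36.7%, against a median of 43.3% over all probes. Their place in coding or untranslated sequence is not given, since no mm9 annotation was used.

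Rank ligand was not measurable in any of the 3 groups, and osteoprotegerin was measurable only in the Runx2+/- suture. The Tnfsf11 probe gave processed signals of 3.38 on the P5 WT array, 2.97 on the P7 WT array and 2.77 on the Runx2+/- array, where the lowest signal well above background was 11.99, 14.10 and 13.09. All 3 values lay within the range of the 308 negative control spots of the same array, whose medians were 2.73, 3.16 and 2.99. Before background subtraction the Tnfsf11 spot read 72.4, 69.2 and 67.5 units over backgrounds of 68.6, 67.7 and 68.6. On both P7 arrays the software replaced its value by a surrogate, a stand-in for spots that do not exceed background. On the P5 array the spot passed the software's weaker test of exceeding its background and failed the stronger one. Tnfsf11 therefore has no order between the groups, and a transcript below these limits was not detectable with this probe.

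The Tnfrsf11b probe gave 7.04 on the P5 WT array, 3.08 on the P7 WT array, again a surrogate, and 83.6 on the Runx2+/- array. Side by side with Tnfsf11, the levels on the scaled log2 axis were -3.95 for Tnfsf11 and -2.89 for Tnfrsf11b on the P5 array, -2.94 and -2.88 on the P7 WT array, and -5.49 and -0.57 on the Runx2+/- array. Only the last of these 6 values was well above background, and the rest are readings under the background limit of their array, with no order among them. The P5 value of Tnfrsf11b lay just above the highest negative control spot of that array, at 6.63, and its software error of 2.68 units spans that gap. Levels of different probes are not set against each other here, so no Rank ligand to osteoprotegerin ratio was formed.

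Against P5 WT, the Runx2+/- level of Tnfrsf11b was higher by at least 2.92-fold, a bound of 1.55 log2 units that sets its level against the background limit of the P5 array. Against P7 WT the bound was only 0.12 log2 units, at least 1.08-fold, because the background limit of that dim array is nearly as high as the Runx2+/- level. That bound is smaller than the spot SD of 0.19 and is not called a difference. It was 0.94 with cyclic loess and 0.02 to 0.25 under the other alternatives that keep the background limit and give a bound. With normexp, which models background and signal together, the bound against P5 was 0.35 after scaling to the 75th percentile, and there was no order after scaling to the median of the commonly detected probes, those well above background on every array. A gene above background on the brightest array alone can only be higher there or have no order. Markers of other cells that can carry osteoprotegerin moved with it: 4 of 5 chondrocyte markers and 3 of 5 endothelial markers exceeded 2-fold upwards from P5 WT to Runx2+/-, while 8 of 9 osteoblast markers were at least 2-fold lower. In that comparison 8.67% of all ordered genes lay 2-fold or more above and 15.4% below. The part of these cells in the Tnfrsf11b signal was not tested.

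**Figure D1:**
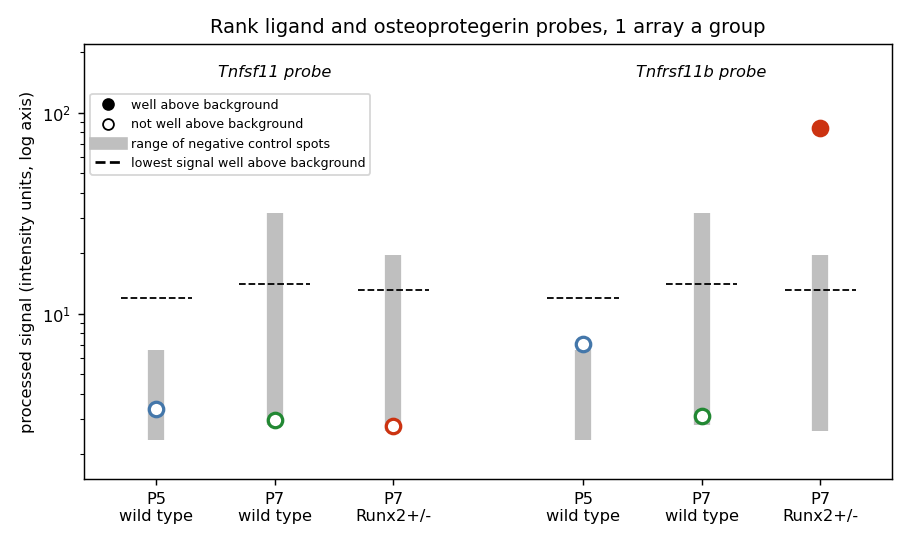
Processed signal (intensity units, log axis) of the single Tnfsf11 probe and the single Tnfrsf11b probe on each of the 3 arrays, with the range of negative control spots as grey bars and the lowest signal called well above background as dashes. Tnfsf11 lies between 2.77 and 3.38 on all arrays, within the negative controls, and Tnfrsf11b exceeds the dashed limit only on the Runx2+/- array, at 83.6.

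Rank, the receptor, was well above background in every group and was lowest in the Runx2+/- suture. Its probe read 161.2 units on the P5 WT array, 96.7 on the P7 WT array and 215.2 on the Runx2+/- array, with software errors of 16.3, 10.1 and 21.7. Scaled, the Tnfrsf11a levels were 1.63, 2.09 and 0.79 log2 units. The P7 WT level was the highest and the Runx2+/- level the lowest, and both steps exceed the spot SD. The P7 WT level was 0.46 above P5, higher than for 78.0% of the 12868 genes measured on both arrays. The Runx2+/- level was 1.30 below P7 WT, a 2.45-fold difference, with 9.85% of 12910 genes lower still, and 0.84 below P5 WT. With normexp and the 75th percentile the age difference was -0.12, beside a median of -0.26 over all genes in that setting, so relative to it Tnfrsf11a was 0.14 higher.

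Oscar, the collagen-binding costimulatory receptor of osteoclasts, showed the same order of groups. Its probe read 62.2, 37.8 and 75.7 units on the P5 WT, P7 WT and Runx2+/- arrays, with software errors of 6.77, 4.86 and 8.12. The scaled levels were 0.26, 0.73 and -0.71 log2 units. The P7 WT level was 0.47 above P5, and the Runx2+/- level was 1.45 below P7 WT, a 2.73-fold difference, and 0.97 below P5. Oscar was dim on the P7 WT array, where the background limit was -0.69 and the highest negative control spot read 31.7 units. Among probes of like brightness, the second lowest of 8 equal groups, the median genotype difference was 0.11, opposite in sign to that of Oscar.

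Oscar and Tnfrsf11a were the members at least 2-fold apart between Runx2+/- and WT at P7, both lower, 2 of 8 with an order. Of all ordered genes 13.9% were lower and 5.04% higher by that much, and 2 of 8 is too few to set the group apart from that background. Both calls were lost under 1 of the processing alternatives at 2-fold. With normexp and the 75th percentile Tnfrsf11a was 0.29 lower and Oscar 0.67 lower, in a setting where the median of all genes moved to 0.68, and relative to that median they were 0.97 and 1.35 lower. With normexp and the median of commonly detected probes both calls were kept, at 1.01 and 1.38 lower. Some osteoclast markers moved in the same comparison: Atp6v0d2, a proton pump subunit, was 3.45 lower, Dcstamp, a fusion receptor, 3.12, Mmp9, a protease, 2.74. On the Runx2+/- array Atp6v0d2 and Dcstamp stood at -2.73 and -2.67, near that array's background limit of -3.25. The size of the Atp6v0d2 and Dcstamp differences is therefore weakly measured. Acp5, the tartrate-resistant phosphatase, was 5.67-fold lower. Of 11 ordered osteoclast markers 4 were at least 2-fold lower and none higher, with a median of -0.27, while Ctsk, Car2 and Snx10 lay within 0.10 of 0. The summed signal of all 13 osteoclast markers, in multiples of the 75th percentile, was 163.9, 325.3 and 152.4 on the P5 WT, P7 WT and Runx2+/- arrays, the same order of groups as Oscar and Tnfrsf11a. That order rests on Acp5, the brightest of them, since without it the sums were 74.0, 132.5 and 118.3, an alternative added after the values were seen. Whether fewer osteoclasts account for the receptor levels was not tested.

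Promoters of this pair are shown because both genes were at least 2-fold lower for genotype. Nfatc1 and Trem2 also had their lowest level with 1 Runx2 copy, by less than 2-fold. RefSeq's promoter table (GRCm38.p6) holds 5 of the 9 genes, namely Csf1, Oscar, Tnfrsf11a, Tnfsf11 and Trem2. The Runx letters TGTGGT and TGCGGT, searched on both strands from 250 bases before to 50 after the start, were found in none of the 5, against 22.4% of 32851 promoters with either. The NFAT core TGGAAA (21.4% of promoters), the AP-1 letters TGANTCA (7.81%) and the PU.1 letters GAGGAAG (13.6%) were searched too, after the sequences had been seen. The 250 bases before each start are printed 5′ to 3′ with matches in capitals.
Oscar (chr7:3616158-3616407, minus strand): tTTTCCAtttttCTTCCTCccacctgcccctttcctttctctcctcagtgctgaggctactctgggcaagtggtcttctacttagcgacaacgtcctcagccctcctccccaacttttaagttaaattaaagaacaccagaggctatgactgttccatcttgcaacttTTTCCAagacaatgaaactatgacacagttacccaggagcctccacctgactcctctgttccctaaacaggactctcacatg
Tnfrsf11a (chr1:105780473-105780722, plus strand): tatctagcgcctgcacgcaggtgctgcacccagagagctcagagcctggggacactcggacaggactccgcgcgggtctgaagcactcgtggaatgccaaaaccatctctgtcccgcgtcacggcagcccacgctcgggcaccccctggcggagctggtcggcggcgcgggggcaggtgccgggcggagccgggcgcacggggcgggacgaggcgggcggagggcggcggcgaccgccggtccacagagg
Oscar held the NFAT core on the opposite strand, starting 249 and 82 bases before the start, and the PU.1 letters on the opposite strand starting at 238. Tnfrsf11a held none of these letters in this window and was richer in GC, at 73.6% against 47.2%. Trem2, whose promoter is not printed, held the AP-1 letters starting 9 bases before the start. It also held the PU.1 letters on the opposite strand, starting at 41. Csf1 and Tnfsf11 held none. A match of letters is a description and not a binding site.

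Nfatc1 was lower at each step, by amounts that stayed under 2-fold, and both of its probes gave the same order. The brighter probe (NM_198429) read 317.0, 88.9 and 390.8 units and stood at 2.61 on the P5 WT array, 1.97 on the P7 WT array and 1.65 on the Runx2+/- array. The other probe (NM_016791) stood at 0.57, 0.28 and -0.16. On the P7 WT array that probe was flagged well above background. Its 27.6 units there lay below the array's highest negative control spot, at 31.7, so its P7 WT level is weakly measured. The groups thus ran from P5 WT through P7 WT to Runx2+/- with either probe. For age the probes gave -0.64 and -0.28, for genotype -0.31 and -0.44, and for P7 Runx2+/- against P5 WT -0.95 and -0.73. The genotype difference exceeds the spot SD but not the SD between probes of a gene, and with normexp and the 75th percentile it was 0.44, which is -0.24 relative to the median of all genes in that setting.

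**Figure D2:**
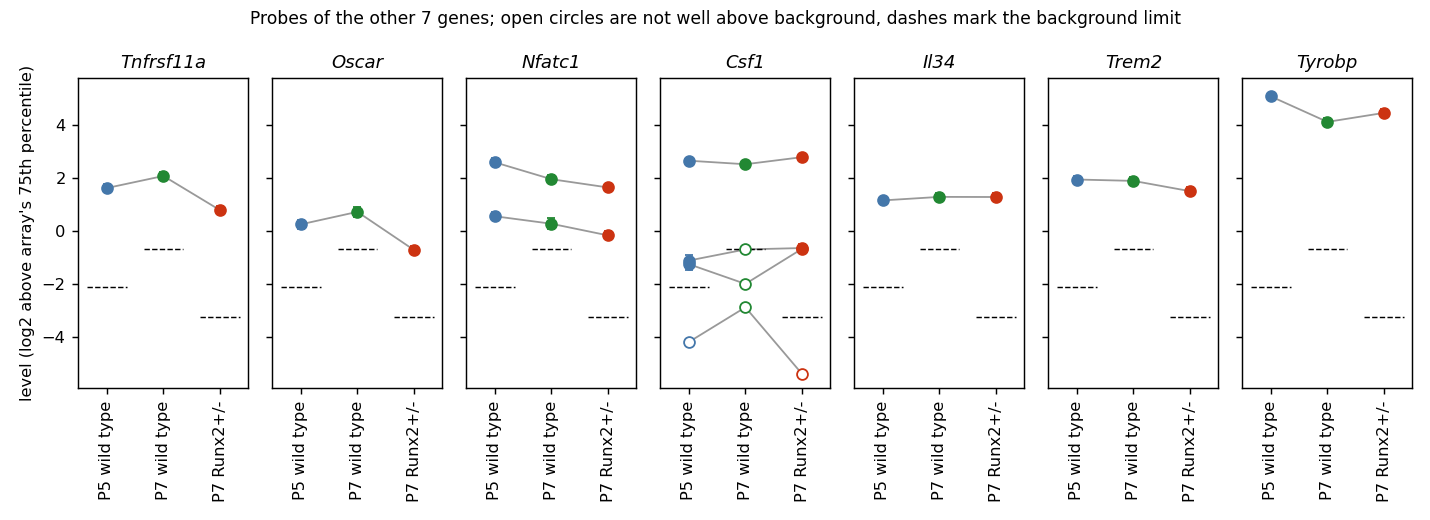
Levels (log2 units above each array's 75th percentile) of every probe of Tnfrsf11a, Oscar, Nfatc1, Csf1, Il34, Trem2 and Tyrobp on the 3 arrays, 1 point per probe and array, with bars for the spot SD (brightest Csf1 probe) or the software error and dashes for the background limit. Tnfrsf11a and Oscar peak on the P7 WT array, at 2.09 and 0.73, and are lowest on the Runx2+/- array, at 0.79 and -0.71, while the brightest Csf1 probe stays between 2.53 and 2.80.

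The ligands of the Csf1 receptor differed little between the groups. Csf1, macrophage colony-stimulating factor, has the best measured probe of the 9 genes, with 10, 9 and 10 spots on the P5 WT, P7 WT and Runx2+/- arrays. Its levels were 2.67 ± 0.04, 2.53 ± 0.06 and 2.80 ± 0.05 log2 units (SD over spots of 1 array). Spots of 1 array barely spread, and this error covers the printing of the array and not the mice or the labelling. The age difference was -0.13, and 33.3% of genes were lower. The genotype difference was 0.27, beside a median of 0.22 for probes of like brightness, so Csf1 moved little more than those.

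The other 3 Csf1 probes were dim. Those at bases 2227 and 2256 of NM_001113530 were well above background on the P5 WT array, at -1.25 and -1.11, and on the Runx2+/- array, at -0.66 and -0.64, which puts Runx2+/- 0.58 and 0.47 above P5 WT where the brightest probe gave 0.13. The probe near the 5′ end, at base 179 of ENSMUST00000120654, stayed below that limit throughout. The probes at bases 2227 and 2256 overlap on mm9 (chr3:107548550-107548609 and chr3:107548521-107548580), so they are not separate readings. The brightest probe is numbered on another transcript (base 3749 of NM_007778). These positions are therefore not points along 1 transcript and were not set against the 3′ trend.

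Il34, the other ligand, had 1 probe (base 1672 of NM_029646), which read 116.6, 55.9 and 304.5 units and stood at 1.16, 1.30 and 1.29 log2 units. The 3 levels lay within 0.13 of each other, less than the spot SD of each comparison. The genotype difference was -0.0045 in the reported setting, and 11 alternatives gave -0.25 to 0.52.

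The adaptor Tyrobp was lower at P7 than at P5 and its partner Trem2 was not. The Tyrobp probe, whose 60 bases span chr7:31200651-31202378 on mm9 and so cross at least 1 intron, read 1786, 399.2 and 2764 units and stood at 5.10 on the P5 WT array, 4.13 on the P7 WT array and 4.47 on the Runx2+/- array. The P5 level was the highest, the P7 WT level was 0.97 below it, and only 2.63% of genes were lower. That difference is just under 2-fold and passed it when arrays were scaled on probes detected on all arrays, and with both normexp settings. The Runx2+/- level was 0.34 above P7 WT and 0.63 below P5.

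Tyrobp is also made by neutrophils and macrophages, and most neutrophil markers moved with it. Of 10 neutrophil markers, 8 were at least 2-fold lower at P7 than at P5 in WT, beside 3.12% of all ordered genes. On the Runx2+/- array 6 were at least 2-fold higher than on the P7 WT array, beside 5.04% of all ordered genes. Elane went the other way, 0.74 higher for age and 1.13 lower for genotype. The neutrophil markers had medians of -3.72 and 2.19 for those measured on both arrays. Their summed signal was 915.6, 79.3 and 355.1 multiples of the 75th percentile, the same order of groups as Tyrobp. Macrophage markers had medians of -0.16 and 0.39 and summed signals of 405.1, 372.7 and 137.6. Most of each sum came from Itgam, which neutrophils also carry, and without it the sums were 47.8, 48.0 and 58.4. Itgam differed by -0.14 for age and -2.04 for genotype, unlike most neutrophil markers. Without S100a9, their brightest gene, the neutrophil sums were 350.1, 31.6 and 168.2. Csf1r, the receptor of Csf1 and Il34 that marks the monocyte lineage, differed by 0.18 and 0.09. The part of neutrophils in the Tyrobp difference was not tested.

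Trem2, a lipid-sensing receptor of macrophages and osteoclasts that signals through Tyrobp, read 201.8, 85.03 and 354.6 units and stood at 1.95, 1.90 and 1.51 log2 units. The WT levels lay 0.05 apart, within the spot SD, and the Runx2+/- level was 0.39 below P7 WT and 0.44 below P5. Both exceed the spot SD but not the SD between probes of a gene, 0.53 for genotype and 0.72 against P5. The genotype value was 0.28 with normexp and the 75th percentile, or -0.40 relative to the median of all genes there. Trem2 and Tyrobp thus had opposite signs for genotype in the reported setting, by less than 1.5-fold each. Each value comes from 1 probe and is smaller than the SD between probes, so no order of the pair is drawn.

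**Figure D3:**
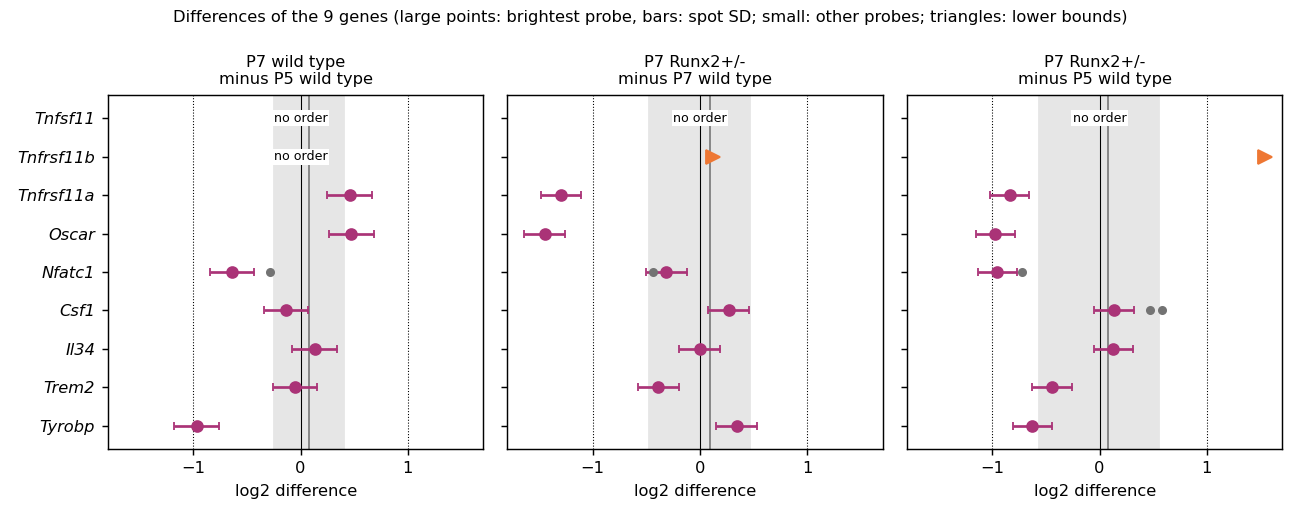
Log2 differences of the 9 genes in the 3 comparisons, with the brightest probe as a large point and a bar of 1 spot SD, other probes as small grey points, lower bounds as triangles, and the interquartile range and median of all genes measured on both arrays as a grey band and line. Dotted lines mark 2-fold. Oscar and Tnfrsf11a lie beyond 2-fold for genotype, at -1.45 and -1.30, and Tnfsf11 has no order in any comparison.

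Over the group, 7 of 9 genes were well above background on all 3 arrays, Tnfrsf11b on 1 and Tnfsf11 on none. For age, none of 7 ordered members was at least 2-fold apart, where 9.51% of all ordered genes were (6.38% higher and 3.12% lower), and the median was -0.05 beside 0.08 for all genes. For genotype, 2 of 8 were, where 18.9% of all ordered genes were, and the median of the 7 measured on both arrays was -0.31 beside 0.10. For P7 Runx2+/- against P5 WT, which differs in both age and genotype but leaves out the dim P7 WT array, 1 of 8 was, the Tnfrsf11b bound, where 24.0% of all ordered genes were, and the median was -0.63 beside 0.08. In that comparison Oscar, Nfatc1 and Tnfrsf11a were lower by 0.97, 0.95 and 0.84, just short of 2-fold, and cyclic loess and the authors' values carried all 3 past it. At 1.5-fold, 27.3%, 40.7% and 49.2% of all ordered genes were apart in the age, genotype and combined comparisons, beside 2 of 7, 2 of 8 and 5 of 8 members. At 3-fold the shares were 3.06%, 8.05% and 7.68%, beside no member. Age and genotype comparisons share the P7 WT array, so opposite signs in the pair of values given for a gene are not separate evidence.

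Few genes that pass the Rank signal on inside the cell were 2-fold apart in any comparison. Of 18 listed, 17 were well above background on at least 1 array. Over all ordered genes 9.51%, 18.9% and 24.0% were at least 2-fold apart for age, genotype and both at once. So short a list is not set apart from those shares by its counts. For age none of 16 ordered genes was at least 2-fold apart, with Ikbkb, a kinase of the NF-kappaB pathway, 0.62 lower, the NF-kappaB subunit Nfkb1 0.60 lower and the adaptor Traf3 0.60 higher. For genotype 1 of 15 was, the NF-kappaB subunit Nfkb2, 1.03 lower, while the kinases Chuk and Map3k14 were 0.80 and 0.70 higher and Traf3 0.63 higher. Traf6, the adaptor that binds Rank, differed by 0.42 for age and -0.50 for genotype. The list medians were 0.11 and 0.09, close to those of all genes. From P5 WT to P7 Runx2+/- 2 of 17 were apart by 2-fold, the kinase Src, 1.75 lower, and Traf3, 1.23 higher. There Cyld, a deubiquitinase that restrains the pathway, was 0.97 higher, Nfkb1 0.89 lower and the list median -0.01.

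Of 15 other transcription factors of osteoclasts and their precursors, 10 had an order for age and genotype. None was at least 2-fold apart for age and 2 were for genotype, beside 9.51% and 18.9% of all ordered genes. A count of 2 of 10 is near that genotype share. Jun, an AP-1 subunit, was 0.79 lower at P7 than at P5 and 1.28 lower on the Runx2+/- array, and Mitf, which acts with Nfatc1 on osteoclast genes, was 1.03 lower on the Runx2+/- array. Tfe3, its relative, and Rbpj, a Notch effector, were 0.72 and 0.70 higher for genotype. Of 11 genes of the calcium and calcineurin arm that activates Nfatc1, none was at least 2-fold apart in either comparison. Their medians were 0.16 and 0.25, and 11 genes are too few to set the list apart from the shares of all genes. Nfatc2, a relative of Nfatc1, was 0.67 higher at P7.

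Costimulation receptors signal through adaptors that carry a tyrosine activation motif. For age 3 of 10 ordered genes lay 2-fold or more below and 1 above, beside 3.12% and 6.38% of all ordered genes. Hcst, an adaptor related to Tyrobp, was 1.40 lower, the phosphatase Ptpn6 also just over 2-fold lower and Fcer1g, the adaptor of Oscar, 0.63 lower, while Trem1 was 0.83 higher. For genotype Trem1 was 1.40 lower, Sh2b3, an inhibitory adaptor, 0.91 higher, and the kinase Syk 0.76 higher. There 2 of 11 were at least 2-fold lower and 1 higher, beside 13.9% and 5.04% of all ordered genes. The adaptor Lcp2 was well above background only on the dim P7 WT array, which gives bounds of at least 19.7-fold higher for age and at least 42.9-fold lower for genotype from a single probe. Fcer1g was 0.23 higher for genotype, where Oscar was 1.45 lower.

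In the arm of the Csf1 receptor and other myeloid growth factor receptors, none of 6 ordered genes was 2-fold apart for age. Over all ordered genes 9.51% were. For genotype Ptprz1, a further receptor described for Il34, was 1.76 lower, Csf2ra 1.56 higher and Csf3r 0.98 lower. There 2 of 7 were at least 2-fold higher, with Kit as a bound, and 1 lower, beside 5.04% and 13.9% of all ordered genes.

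Among 28 inducers and modulators of Rank ligand, 22 were well above background somewhere. The cytokines Il6, Tnf and Osm were above background on none, and Il11 and Lif on the Runx2+/- array only. For age 1 of 15 ordered genes was at least 2-fold higher, the Pthlh bound, and 1 lower, Il6ra at 1.05. Over all ordered genes 6.38% were higher and 3.12% lower by that much. The cytokine receptor Il1r1, the ligand Wnt5a and its receptor Ror2 were 0.92, 0.92 and 0.89 higher. For genotype 4 of 16 were at least 2-fold lower and none higher, beside 13.9% and 5.04% of all ordered genes. So few genes do not set the list apart from that background. Vdr, the vitamin D receptor, was 2.10 lower, and the cytokine Tnfsf12 was 1.15 lower. Pth1r, the receptor for parathyroid hormone, was 1.63 lower, and Pthlh, another ligand of that receptor, was at least 8.11-fold lower. Both Pthlh bounds, for age and genotype, rest on its P7 WT level of -0.23, near that dim array's background limit of -0.69. They are therefore weakly measured. Tnfrsf1a, a receptor for Tnf, was 0.95 higher. Vitamin D and parathyroid hormone both induce Tnfsf11 in osteoblast-lineage cells, and 7 of 9 osteoblast markers were at least 2-fold lower in the same comparison. The median over 14 genes measured on both arrays was -0.19, and the part of the osteoblast markers in these differences was not tested.

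**Figure D4:**
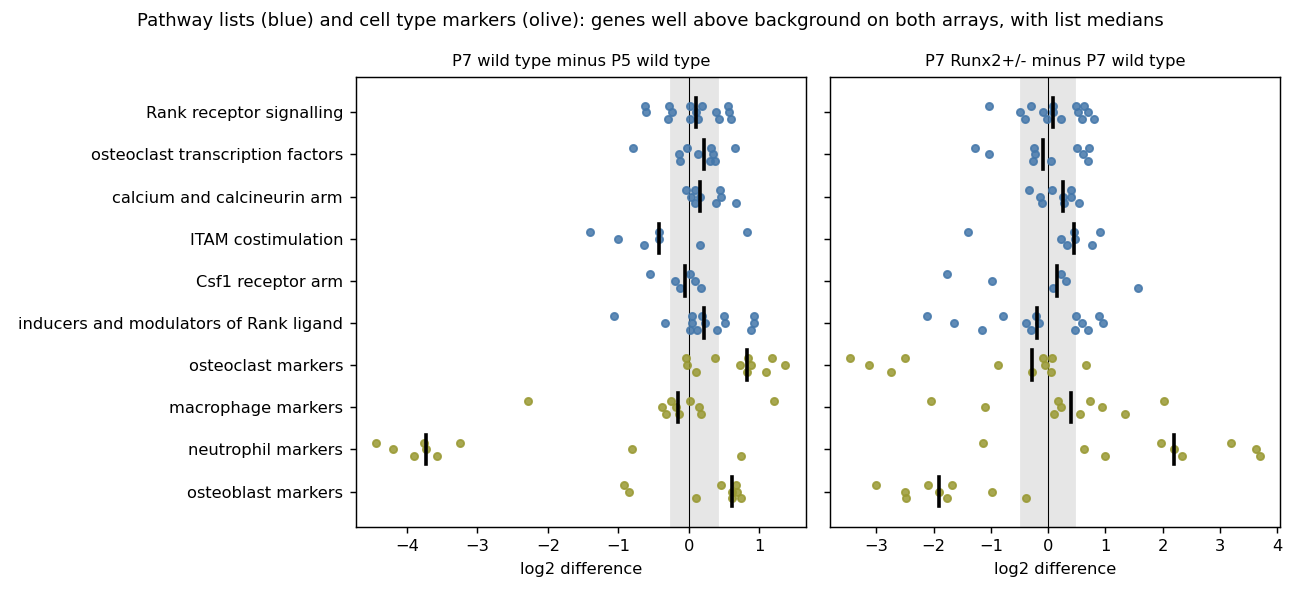
Log2 differences for age (left) and genotype (right) of genes well above background on both arrays, 1 point per gene, for 6 lists of pathway genes (blue) and 4 lists of cell type markers (olive), with list medians as black bars and the interquartile range of all genes as a grey band. Pathway medians lie between -0.42 and 0.45, while neutrophil markers lie at -3.72 and 2.19 and osteoblast markers at 0.61 and -1.91.

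The genotype differences were set out under each way of processing, because 1 of them, normexp with the 75th percentile, moved the median of all genes from 0.10 to 0.68. For Tnfrsf11a they ran from -1.54 to -0.29 over 11 alternatives and for Oscar from -1.66 to -0.67, negative in all. For Csf1 and Tyrobp they ran from 0.05 to 1.09 and from 0.24 to 1.44, positive in all. For Nfatc1, Trem2 and Il34 normexp with the 75th percentile gave positive values, and the other 10 gave negative ones. Relative to the median of all genes in that setting they were -0.24, -0.40 and -0.15. With no filter and no floor, where that median was -0.84, Nfatc1, Trem2 and Il34 lay 0.53, 0.45 and 0.84 above it. For genes with 1 probe, the alternatives that change only the filter or the choice of probe repeat the reported value.

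**Figure D5:**
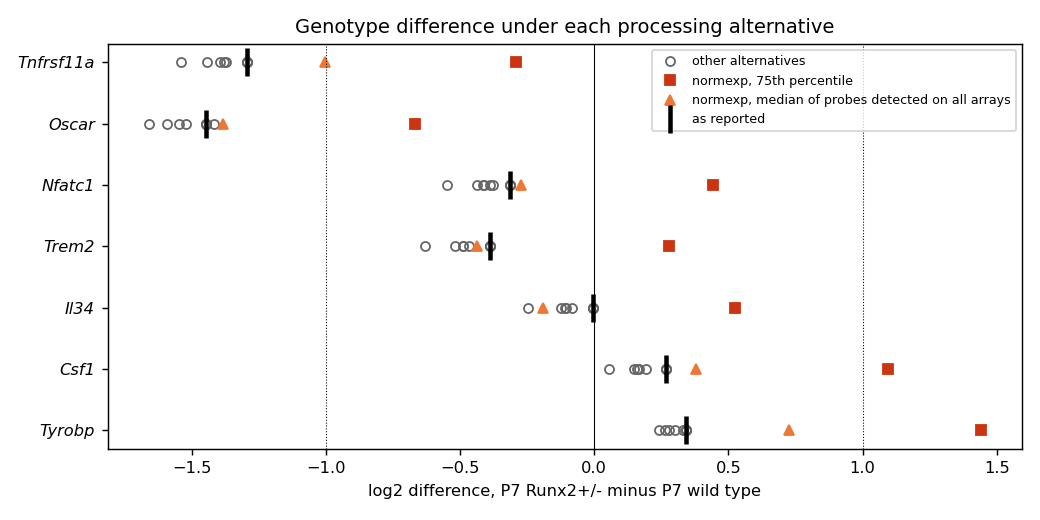
Genotype differences (log2, P7 Runx2+/- minus P7 WT) of the 7 genes measured on both arrays under the reported setting (black bars), under 2 settings with normexp background correction (squares and triangles) and under the other alternatives (open circles). The squares, normexp with the 75th percentile, stand to the right of every other value, as does the median of all genes in that setting, at 0.68.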

How the data were processed

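Per the labels, Cy3-labelled cRNA amplified from total RNA was put on 1 array a group. The authors' scanner files hold intensity values on a linear scale, made with Agilent Feature Extraction 10.7.1.1 per the file headers and 9.5.1.1 per the submitters' processing notes. Software errors, background and flags of 0 or 1 come from the same files. The authors' table of processed intensity values served as an alternative, and its normalization is not given in the sources used here.

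Outlier and control spots were left out, spots of a probe averaged as log2, and each array's 75th percentile subtracted. A probe was well above background where most of its spots were flagged so. A gene took its brightest probe. A value below the limit gave a lower bound, kept only if the measured array was the higher. A 2-fold difference was counted. Of 55680 probes, 27234 were named through RefSeq accessions. Members and lists were chosen with earlier results of these data known. The text names every member, Runx2, and up to 4 genes per list at least 1.5-fold apart, with Traf6, Fcer1g, Ctsk, Car2, Snx10, Csf1r, Lcp2, Pthlh, Kit and cytokines added after their values were seen; 1 result under this rule is not reported here. Genes with a pattern like Tnfsf11 or Tnfrsf11b were not sought, since neither was measured on all arrays. Steps ran in Python 3.11.15 and limma 3.58.1, and were tested on simulated data. Precision is limited by 1 array a group.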

Additional observations from a re-analysis of the deposited data

How the results depend on the processing

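The count of members at least 2-fold apart is small and moves with most choices. For P7 against P5 wild type it was 0. It became 1 (Tyrobp, lower) when arrays were scaled to the median or upper quartile of the probes detected throughout, 1 (Tyrobp again) with either normexp setting, 1 (Tnfsf11, not above background) with no filter and no floor, and 2 at 1.5-fold. For P7 Runx2+/- against P7 wild type it was 2. It was 2 again but with Csf1 and Tyrobp, higher, with normexp and the 75th percentile, 4 with no filter and no floor, and 0 at 3-fold, and all other alternatives kept Oscar and Tnfrsf11a. For P7 Runx2+/- against P5 wild type it was 1. It became 2 with quantile normalization or no filter, 3 with either scaling to detected probes, 4 with cyclic loess or the authors' values, 5 at 1.5-fold, 1 (Oscar in place of Tnfrsf11b) with normexp and the median, and 0 with normexp and the 75th percentile, with probes above background on all arrays, with the mean over probes, or at 3-fold. Shares of all ordered genes moved too. At 2-fold they ran from 3.3% to 43.2% for age over the settings. They ran from 17.0% to 52.6% for genotype and from 13.4% to 47.2% for P7 Runx2+/- against P5 wild type. Each highest share came with no filter and no floor, where 1, 4 and 2 of 9 members were called. The cause of these changes was not tested.

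With normexp and the 75th percentile, the share of 2-fold calls over all genes that were higher was 3.3% for age and 89.2% for genotype, against 67.1% and 26.6% as reported. No filter and no floor gave 90.3% and 9.43%. Of 246 alternative values for single members 204 lay within the spot SD of the reported one, 42 moved further and 0 reversed a 2-fold difference. Part of this was fixed in advance. For a gene with 1 probe above background on all arrays, changing only the filter or the choice of probe returns the reported value. A reversal could be counted only where the reported difference was at least 2-fold. Of 198 list medians 158 lay within it and 40 moved. Signal over background limits Tnfsf11 on all arrays and Tnfrsf11b on both wild-type arrays. No paired analysis was possible because each group has 1 array.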
